A study of Mus musculus with 16 samples.

Results

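In ventricles of young mice, 449 regions of the genome carried a Hoxb13 peak in each of 4 separate libraries, out of 17634 regions in which at least 1 library had a peak (2.55%). The regions were chosen by the measured peaks themselves: peaks of the 4 lists that shared at least 1 bp on chromosomes 1 to 19, X and Y were merged, and a merged region was kept when it held a peak of every list. That they were called in each library is therefore a description and was not tested. A further 668 regions were called in exactly 3 libraries, 3309 in exactly 2 and 13208 in exactly 1. Many of the regions were narrow and lay at gene starts, and a few were very broad. Of the 28 regions of 10 kb or more, 17 lay within 5 kb of a sarcomere or calcium handling gene. Both kinds are described in turn.

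Hoxb13 is a homeodomain transcription factor of the posterior Hox group that has been studied in the heart as a partner of Meis1, a homeodomain factor of the TALE class. Both are known as restraints on cell division in the cardiomyocytes of the newborn mouse, which stop dividing and enlarge soon after birth. Chromatin immunoprecipitation followed by sequencing (ChIP-seq) recovers the DNA crosslinked to a protein, and a peak is a stretch where the recovered reads exceed the local background.

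All mice were at postnatal day 15. The control group had received vehicle (PBS), and the Paro/Neo group the aminoglycoside antibiotics paromomycin and neomycin at 150 mg/kg, injected intraperitoneally 2 times a day from postnatal day 7 for 7 days. Each group has 2 Hoxb13 libraries, made with the antibody GTX129245, and 2 Meis1 libraries, made with an antibody to Meis1/2 that does not separate the paralogs; the sources used here name no strain. The labels speak of the ventricles of 2 hearts as duplicates, which leaves unsaid whether a library holds 1 heart or a pool, so that errors below measure the spread between these libraries only. Whole ventricle also holds endothelial cells, fibroblasts and blood cells, and a peak does not tell which of them it came from.

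The 4 Hoxb13 lists were of very unequal length. The controls held 5202 (replicate 1) and 1121 (replicate 2) peaks on the chromosomes used, and the Paro/Neo lists 821 (replicate 1) and 16963 (replicate 2). The short lists decided the selection: of the 668 regions called in exactly 3 libraries, 446 lacked Paro/Neo replicate 1 and 215 lacked control replicate 2, while 4 lacked control replicate 1 and 3 lacked Paro/Neo replicate 2. Read depth is unknown for these lists. Without Paro/Neo replicate 1, 895 regions were called in all of the remaining 3 libraries, and with every list held to the length of the shortest there were 212 in all 4.

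Sequences at the starts of some of the highest-ranked regions are given as examples of both kinds of region. The windows run 5′ to 3′ along the gene's strand from 250 bases before to 50 bases after the annotated start, from RefSeq on GRCm38.p6 (the coordinates of mm10). Slc44a1 (chr4:53440163-53440462, plus strand), Foxj3 (chr4:119539411-119539710, plus strand) and Usp7 (chr16:8738293-8738592, minus strand) lie in narrow regions. Pln (chr10:53337436-53337735, plus strand) and Myh6 (chr14:54966558-54966857, minus strand) lie in broad regions; Myh6 was chosen for this contrast after its values were seen. Capitals mark GGGCGG, a motif of the SP and KLF factors, and TTTAT, the core recognised by posterior Hox proteins, on either strand (CCGCCC and ATAAA are their reverse complements). The TATA motif TATAAA contains ATAAA.
Slc44a1: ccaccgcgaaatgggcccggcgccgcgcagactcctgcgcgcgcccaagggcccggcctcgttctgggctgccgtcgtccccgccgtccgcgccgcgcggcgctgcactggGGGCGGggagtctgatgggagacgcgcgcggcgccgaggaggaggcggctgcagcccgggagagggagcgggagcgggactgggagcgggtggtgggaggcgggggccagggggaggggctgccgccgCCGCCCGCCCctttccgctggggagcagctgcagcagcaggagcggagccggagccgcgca
Foxj3: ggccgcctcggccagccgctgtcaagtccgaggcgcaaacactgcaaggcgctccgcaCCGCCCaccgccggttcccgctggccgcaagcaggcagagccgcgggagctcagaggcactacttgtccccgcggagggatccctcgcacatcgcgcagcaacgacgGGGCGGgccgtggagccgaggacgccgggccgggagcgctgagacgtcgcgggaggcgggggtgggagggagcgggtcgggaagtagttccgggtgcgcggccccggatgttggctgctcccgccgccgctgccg
Usp7: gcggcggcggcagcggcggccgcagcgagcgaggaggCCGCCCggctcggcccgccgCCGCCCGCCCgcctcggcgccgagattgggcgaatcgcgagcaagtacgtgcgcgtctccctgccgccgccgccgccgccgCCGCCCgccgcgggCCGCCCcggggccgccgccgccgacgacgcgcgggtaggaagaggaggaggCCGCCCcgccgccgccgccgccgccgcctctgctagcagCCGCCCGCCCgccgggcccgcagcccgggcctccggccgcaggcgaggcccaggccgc
Pln: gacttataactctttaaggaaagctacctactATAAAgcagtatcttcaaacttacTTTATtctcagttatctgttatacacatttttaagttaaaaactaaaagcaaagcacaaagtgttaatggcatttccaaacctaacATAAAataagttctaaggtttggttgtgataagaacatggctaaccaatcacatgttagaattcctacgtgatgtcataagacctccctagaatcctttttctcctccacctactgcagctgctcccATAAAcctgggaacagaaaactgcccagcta
Myh6: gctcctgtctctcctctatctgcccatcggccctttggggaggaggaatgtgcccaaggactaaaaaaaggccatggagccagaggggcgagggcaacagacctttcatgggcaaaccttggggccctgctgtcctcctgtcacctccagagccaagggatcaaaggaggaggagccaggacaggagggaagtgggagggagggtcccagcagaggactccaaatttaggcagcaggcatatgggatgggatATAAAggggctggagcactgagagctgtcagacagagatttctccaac

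GGGCGG occurred 3 times in the Slc44a1 window, 2 times in that of Foxj3 and 8 times in that of Usp7, and none of these windows held TTTAT. The Pln window held no GGGCGG and TTTAT 4 times, 1 of them as part of TATAAA, and the Myh6 window held no GGGCGG and TTTAT 1 time, as part of TATAAA. The share of G and C was 79.7%, 75.0% and 86.0% at Slc44a1, Foxj3 and Usp7, against 36.0% at Pln and 57.3% at Myh6. A match is a run of letters and does not show that a protein is bound.

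Over all promoter windows in the regions, the contrast between narrow and broad regions was smaller. Its values follow the comparison with all windows. Of 21263 promoter windows of 17492 genes, 333 windows of 284 genes shared a base with one of the 449 regions; chromosome 18 has no window in the promoter table. Their median share of G and C was 65.3% against 56.3% over all windows, and their median number of CpG pairs was 25 against 13. GGGCGG was present in 81.4% of the 333 windows and 46.2% of all windows. It was present in 82.0% of the windows at regions called in exactly 3 libraries, so that the share is not particular to the regions called in all 4. TTTAT was present in 21.0% of the 333 windows and 35.0% of all, and CCAATAAA, a longer sequence bound by Hoxb13, in 2.40% (8 windows) and 0.912%. At regions called in exactly 3 libraries CCAATAAA was present in 1.08% (6 windows). CCAAT, which is part of it, was present in 53.8% of the 333 windows and 38.2% of all. TGACAG, the Meis motif, was present in 19.5% and 18.7%. Windows in regions of 3 kb or more (62 windows) held GGGCGG in 64.5% and TATAAA in 14.5%, against 85.2% and 5.90% of the 271 windows in narrower regions. All motifs were searched on both strands, CCAATAAA includes both CCAAT and ATAAA, and these shares are descriptions with no test.

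Peaks in the regions stood high in the long lists and were spread through the short ones. Deposited folds, the enrichment over local background that the authors' peak caller averaged over a peak, were ranked as percentiles within each library's own list, since values of separate lists have no common scale. The median percentile of the highest peak in a region was 92.4 and 71.5 in the controls (replicates 1 and 2), then 60.7 and 97.0 after Paro/Neo (replicates 1 and 2). Of the 20 peaks with the highest fold in each list, 19, 20, 20 and 20 lay in these regions, in the same order of libraries. The regions held 11.9% and 48.8% of the peaks of the control lists and 65.9% and 2.66% of those of the Paro/Neo lists. Across the 449 regions the folds of any 2 libraries had a Spearman rank correlation from 0.60 to 0.73, and the covered bases one from 0.59 to 0.86; the regions share their selection and the width of the locus, and no test was made.

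**Figure D1:**
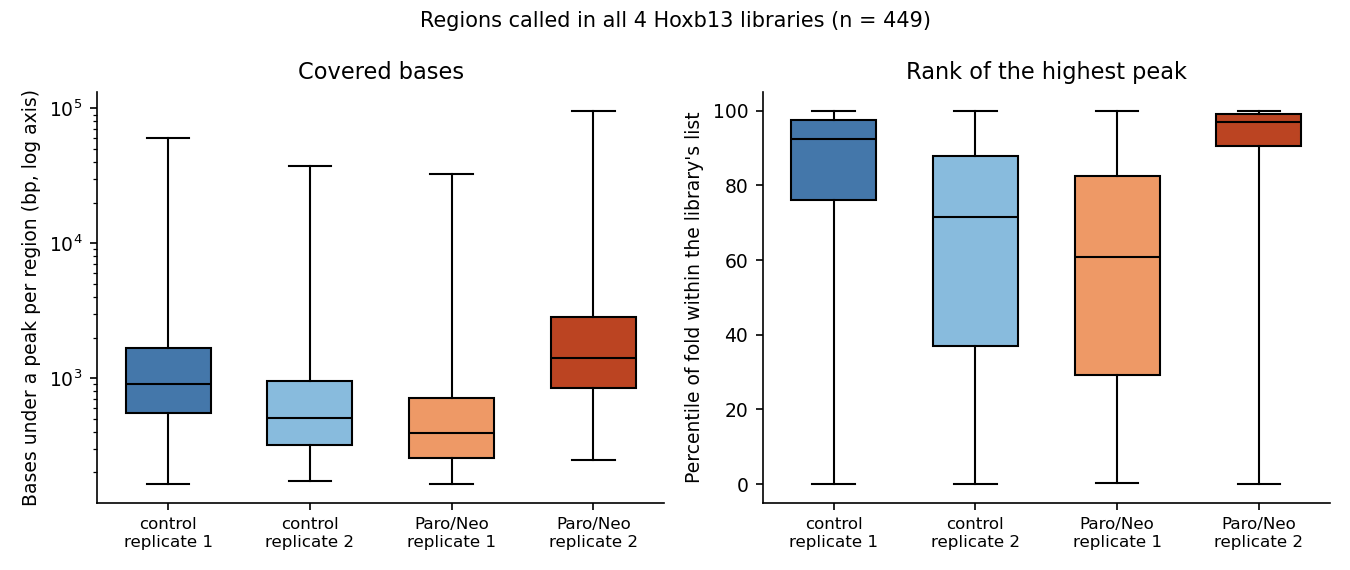
Bases under a peak per region (left, log axis, bp) and percentile of the highest fold within the library's own list (right) for the 449 regions in each Hoxb13 library. Boxes span the quartiles with the median as a line, and whiskers reach the extremes; the median covered length runs from 395 bp in Paro/Neo replicate 1 to 1416 bp in Paro/Neo replicate 2.

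The regions with the highest mean percentile over the 4 libraries were mostly narrow, and 6 of the 12 highest lay at the start alone of a gene. The highest was a region of 839 bp at the start of Slc44a1, which encodes a choline transporter. Its peaks had folds of 13.2 and 11.9 in the controls and 12.4 and 12.5 after Paro/Neo, and 445 bp were under a peak in all 4. A region of 710 bp at the start of Stx16, a SNARE protein of the Golgi, had folds of 14.8, 14.5, 8.43 and 13.1 in the same order. The region of 1274 bp at the start of Foxj3, a forkhead factor, had folds of 10.3, 7.99, 9.22 and 12.1. At Usp7, which encodes a deubiquitinase that acts on the p53 pathway, the region was 1244 bp wide with folds of 8.89, 8.54, 7.01 and 7.74. Each of these ranked in the top few percent of its list in every library. Others of the 12 highest lay at Cenpu, Tpcn1 and Ephb4, near Tle2 (2844 bp away), near Cd3e (6818 bp wide and 1827 bp from the gene) and 108757 bp from Jun, its nearest protein-coding gene.

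The remaining regions of the 12 were broad and lay at Pln and at Hdgfl2 with Plin4. Pln encodes phospholamban, the inhibitor of the sarcoplasmic reticulum calcium pump, and lies inside a region of 13409 bp (chromosome 10, 53335266 to 53348674). The Pln region had folds of 9.02 and 6.48 in the controls and 7.43 and 8.36 after Paro/Neo. Coverage of a gene, here and below, is the share of its body under any peak of the library, and was 79.8%, 44.8%, 29.2% and 100% for Pln. The region of 12061 bp at Hdgfl2 and Plin4, a lipid droplet protein, had folds of 7.38, 6.43, 8.06 and 9.50, and the neighbouring gene Plin5 lies within 5 kb of it.

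At the other end, 20 of the 449 regions had a mean fold percentile of 2.06 at most, and the next region had 21.4. Their folds ran from 1.44 to 2.36 although their −log10 q reached 13.5. Of these 20 regions, 15 lay more than 20 kb from a protein-coding gene, out of 24 such regions among the 449. They include a region of 5809 bp on chromosome 17 that holds the annotated 18S ribosomal RNA gene Rn18s-rs5, 4 regions next to each other on chromosome 9 whose nearest gene is Alkbh8, and the lowest of all, near Gm2244, at a percentile of 0.154. All 20 also held a Meis1 peak, at Meis1 percentiles of 3.76 at most. Without these 20 regions the median width was 1487 bp (1453 bp with them), the share within 1 kb of a gene end 81.8% (78.2%) and the number of protein-coding genes with a region 615 (621). Just outside the selection, the highest-ranked regions called in exactly 3 libraries lay in Cadm4, Hpse2 and Plekha6 at mean percentiles of 97.2, 97.1 and 96.5, each without a peak in Paro/Neo replicate 1.

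The regions were wide. Their median width was 1453 bp (quartiles 885 and 2861), against 1011, 728 and 413 bp for regions called in exactly 3, 2 and 1 libraries. A merged region grows with the number of peaks joined, so width and the selection are not independent. Regions of 3 kb or more made up 23.8% (107 regions), against 9.43%, 3.54% and 0.530% of the other classes. Regions of 10 kb or more numbered 28, against 1, 1 and 0 in the other classes. Without Paro/Neo replicate 2, whose peaks were the widest, the median width was 962 bp. The stretch under a peak in every library was shorter, with a median of 305 bp (quartiles 198 and 555); 9 regions had no such base and 430 had at least 100.

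**Figure D2:**
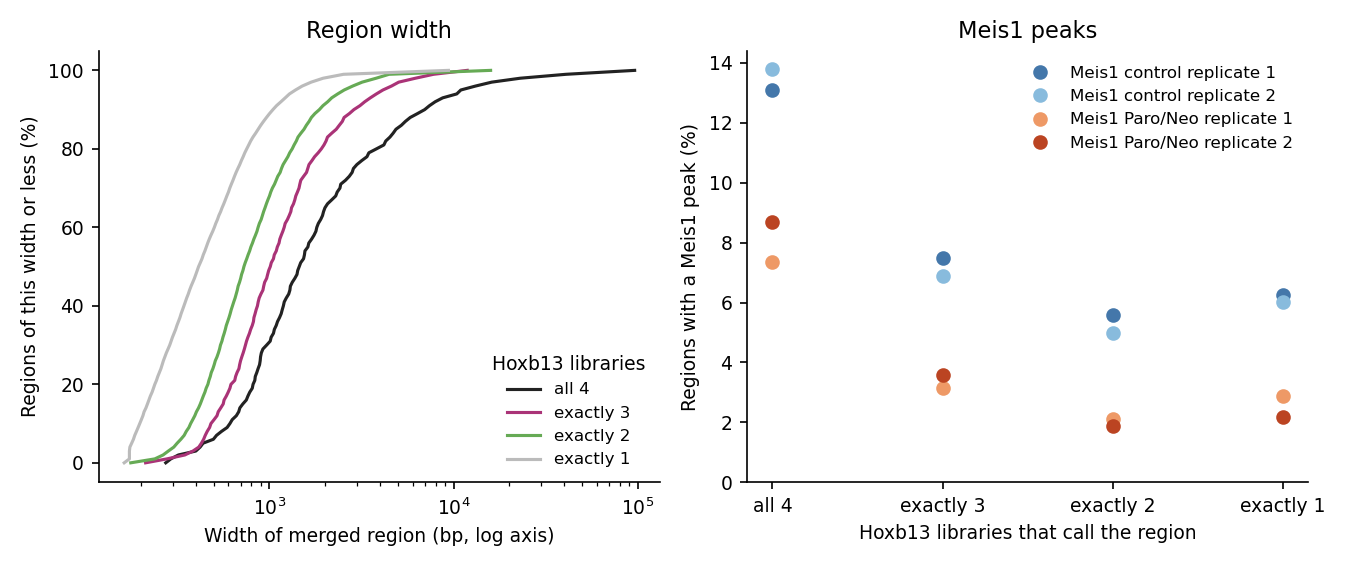
Left, the share of regions (%) up to a given width (bp, log axis) for regions called in all 4, exactly 3, exactly 2 and exactly 1 Hoxb13 libraries; the curve for all 4 lies farthest right, with a median of 1453 bp. Right, the share of regions (%) that hold a Meis1 peak, with 1 point for each Meis1 library; at regions called in all 4 the points lie between 7.35% and 13.8%.

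Most of the widest regions lay over genes of the giant and the abundant proteins of the sarcomere, the repeating unit of muscle contraction. Ttn, which encodes the molecular spring titin, held 7 of the 449 regions with a summed width of 252766 bp. Peaks covered 59.2% and 31.3% of its 278578 bp in the controls and 24.9% and 94.5% after Paro/Neo. Its widest regions were 96161 bp (chromosome 2, 76699718 to 76795878, over the last base of the gene) and 73113 bp (76873801 to 76946913, within the gene), and 29926 bp of the latter were under a peak in all 4 libraries, the longest common total of any region. Fhl2, a LIM-domain protein of the sarcomere, lay under a region of 71151 bp, and Atp2a2, the calcium pump that phospholamban inhibits, under one of 54022 bp. Of the 28 regions of 10 kb or more, 17 (60.7%) lay within 5 kb of a sarcomere or calcium handling gene, as did 11 of 79 (13.9%) from 3 to 10 kb, 2 of 203 (0.985%) from 1 to 3 kb and 0 of 139 below 1 kb.

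Myh6 and Myh7 encode the adult and the fetal myosin heavy chain of the mouse ventricle and lie next to each other on the minus strand of chromosome 14. A region of 40787 bp (54936072 to 54976858) spans Myh6 and the last part of Myh7, and a region of 30478 bp (54977671 to 55008148) spans the rest of Myh7 and sequence before its start. Peaks covered 85.4% and 53.6% of Myh6 in the controls and 77.1% and 100% after Paro/Neo. Peaks covered 61.5%, 32.1%, 45.2% and 96.4% of Myh7 in the same order. In Paro/Neo replicate 2 each region was a single peak, while in the other libraries it was broken into several. Meis1 peaks in the first region came from the control libraries alone and lay near the start of Myh6.

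**Figure D3:**
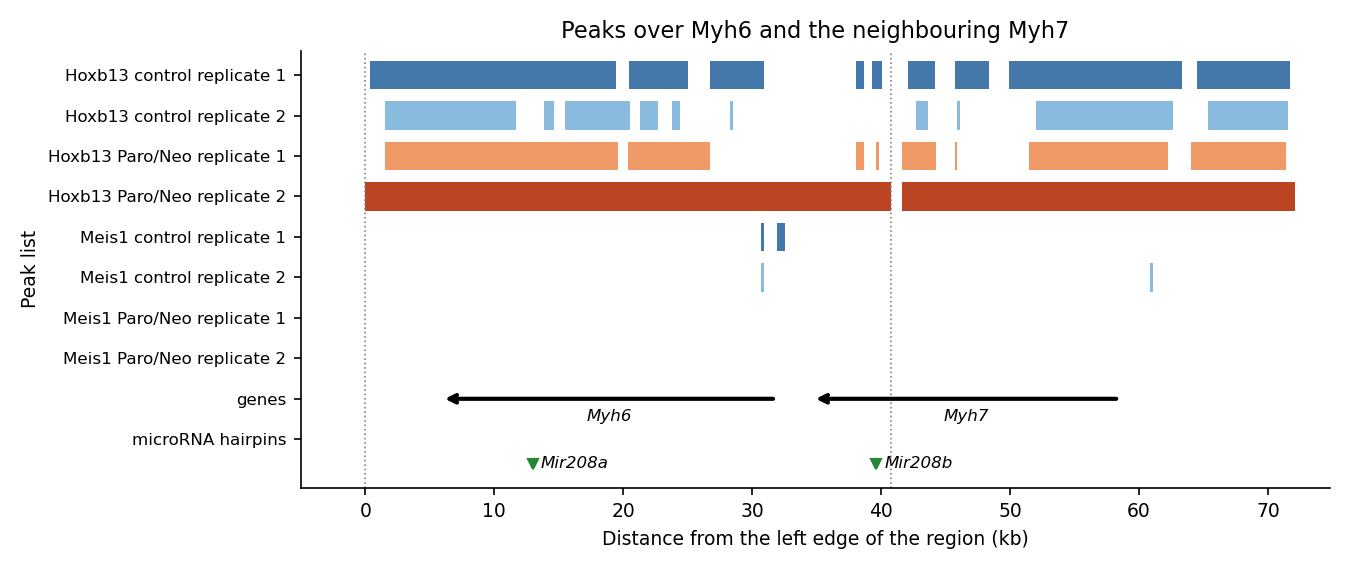
Peaks of the 4 Hoxb13 and 4 Meis1 lists over Myh6 and Myh7, by distance (kb) from the left edge of the 40787-bp region; dotted lines mark that region, arrows the genes in the direction of transcription, and triangles the microRNA hairpins. Hoxb13 peaks fill most of Myh6 in every library, whereas Meis1 peaks are short and appear in the control lists only.

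The introns of these myosin genes encode microRNAs, of which miR-208a and miR-208b are known regulators of the balance of myosin isoforms. Both hairpins lie in the 40787-bp region, Mir208a at 54949060 to 54949142 and Mir208b at 54975700 to 54975776. Their mature 3p strands share the seed (bases 2 to 8, in capitals) UAAGACG. A further region, of 21078 bp (chromosome 2, 180385190 to 180406267), holds the host transcript Mir1a-1hg with Mir1a-1 and Mir133a-2, which encode abundant microRNAs of striated muscle. Mature sequences are from RefSeq on GRCm38.p6.
miR-208a-3p: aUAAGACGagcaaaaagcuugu
miR-208b-3p: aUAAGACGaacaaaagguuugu

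The region at Mir1a-1hg had 10121 and 7655 bp under peaks in the controls and 5380 and 20868 bp after Paro/Neo, and its nearest protein-coding gene, Gata5, is 49687 bp away. Long noncoding RNA genes also held broad regions. A region of 11287 bp holds Malat1, the abundant nuclear RNA, with a mean percentile of 97.0, and one of 23013 bp holds Neat1, the scaffold of paraspeckles, with a mean percentile of 60.3. These RNA genes were singled out after their values were seen.

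Within 5 kb of the body of 621 protein-coding genes out of 21887 (2.84%) lay one of the 449 regions, and this share is the background for the gene lists that follow. Every list with any such gene stood above it, marker lists of other cells among them. The lists named next had the highest shares. Of 39 sarcomere genes, 16 had such a region (41.0%), and of 27 calcium handling genes 6 (22.2%). Immediate early genes, which respond to stimuli within minutes, had 8 of 28 (28.6%), and genes of translation factors and splicing 6 of 22 (27.3%). Split by length into 4 equal classes, the share of genes was 2.30% in the shortest class, 3.18% in both middle classes and 2.69% in the longest. The lists were compared with this background as a description, with no test, and the earlier results that led to their choice came from the same peaks.

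**Figure D4:**
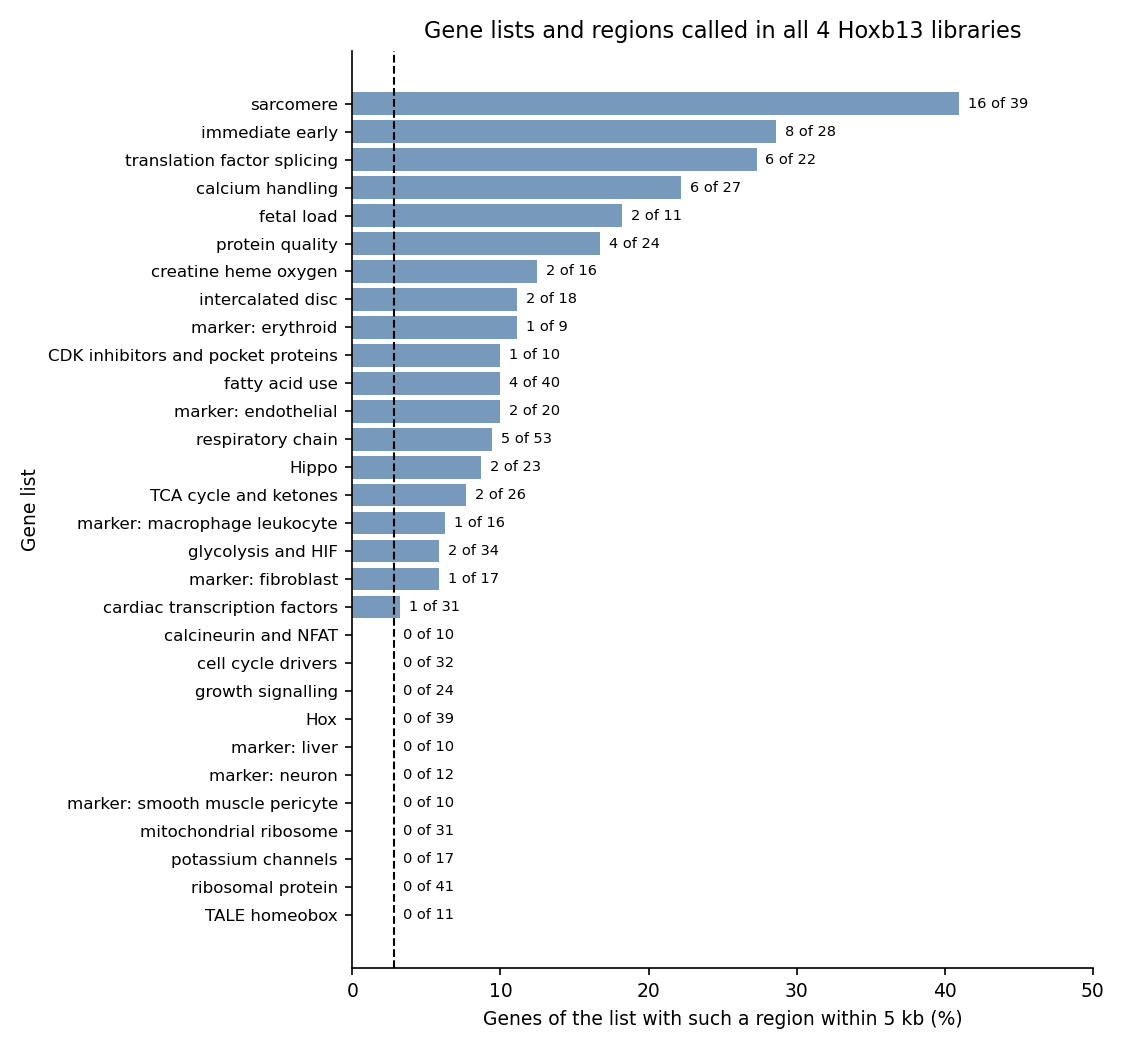
Share of the genes of each list (%) that have a region called in all 4 Hoxb13 libraries within 5 kb, with the count of genes beside each bar; the dashed line is the share over all protein-coding genes, 2.84%. Sarcomere genes have the longest bar, 41.0%.

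The sarcomere genes included Actc1, Fhl2, Myh6, Myh7, Ldb3, Myl2, Ttn, Mybpc3, Csrp3, Myl3, Tnni3, Tnnt2, Lmod2, Tpm1 and Xirp1. Actc1, cardiac alpha-actin, ranked highest among them with a mean percentile of 99.1 and folds of 6.96, 6.75, 7.00 and 11.0 in control replicates 1 and 2 and Paro/Neo replicates 1 and 2. Its region was 7970 bp wide (chromosome 2, 114044937 to 114052906) and peaks covered 99.8%, 70.7%, 48.6% and 100% of the gene. Actc1 was thus covered nearly whole in 2 libraries, 1 of each group, and in part in the other 2. Myl2, the ventricular regulatory light chain, had folds of 6.25, 5.12, 5.21 and 6.77, with 43.6%, 29.4%, 27.4% and 79.9% of the gene covered. Mybpc3 (myosin-binding protein C) and Myl3 (essential light chain) had no covered base within the gene in 3 of the 4 libraries, because their peaks there lay past the last base. Paro/Neo replicate 2 covered 33.8% of Mybpc3 and 69.3% of Myl3. The lowest-ranked of the list was Xirp1, an actin-binding repeat protein, with a mean percentile of 61.5.

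The calcium handling genes were Pln, Atp2a2, Gja1, Trdn, Ryr2 and Jph2. Atp2a2 had folds of 6.10, 6.07, 6.90 and 5.18 and coverage of 52.9%, 7.87%, 8.93% and 100% of the gene. Gja1, which encodes the gap junction protein connexin 43, had folds of 6.61, 6.29, 4.76 and 7.15. Ryr2, the calcium release channel, and Jph2, which holds the release unit to the plasma membrane, ranked lower at mean percentiles of 86.7 and 85.4. Peaks of the 3 shorter lists covered 2.40%, 0.317% and 0.143% of Ryr2, and those of Paro/Neo replicate 2 covered 46.5%.

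Genes of energy supply had regions at smaller shares. Fatty acid use had 4 of 40 genes (Plin5, Pdk4, Fabp3 and Esrra), the respiratory chain 5 of 53 (Slc25a4, Atp5a1, Atp5e, Atp5b and Cyc1), the TCA cycle and ketone use 2 of 26 (Mdh1 and Cs), glycolysis and HIF 2 of 34 (Gapdh and Gpi1), and creatine, heme and oxygen handling 2 of 16 (Mb and Txnip). Slc25a4, which exchanges ATP for ADP across the mitochondrial inner membrane, had folds of 5.13, 4.84, 5.91 and 7.32 in a region of 10787 bp. Mb, which encodes myoglobin, had folds of 6.25, 3.95, 5.52 and 5.31 in a region of 10409 bp. Pdk4, the kinase that shuts off pyruvate dehydrogenase, had folds of 4.19, 3.56, 4.37 and 5.10. Cs, citrate synthase, was among the lowest at a mean percentile of 41.0, with a region of 680 bp at its start.

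The immediate early genes were Dusp1, Klf2, Zfp36, Jun, Junb, Fosl2, Cebpd and Jund. Dusp1, a phosphatase of MAP kinases, was covered over 100%, 68.0%, 62.8% and 100% of its length, and Jun over 100%, 83.8%, 22.9% and 100%. Their folds were moderate: 4.74, 4.50, 4.44 and 4.58 at Dusp1 and 4.25, 4.15, 3.38 and 4.27 at Jun. The translation and splicing genes were Ddx5, Eef2, Eif4a2, Eif1, Srsf6 and Hnrnpk, and the protein quality genes, 4 of 24, included Hspb7, Trim63 and Hspa8. Ddx5, an RNA helicase, had folds of 5.92, 6.07, 4.30 and 5.34, and Hspb7 of 4.05, 3.45, 3.64 and 4.56. Among cardiac transcription factors 1 of 31 had a region, at Hand2, and the Hippo pathway, which restrains organ size, had 2 of 23, at Tead3 and Amotl2.

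Regulators of the cell cycle had a region at 1 of 10 and 0 of 32 genes in the 2 lists that hold them, counts too small to set apart from the background of 2.84%. Of 10 CDK inhibitors and pocket proteins Cdkn2d alone had a region, of 564 bp, with folds of 4.72, 4.86, 3.92 and 4.07; Cdkn1a, Cdkn2a and Cdkn2b had none. None of 32 cell cycle drivers, 10 calcineurin and NFAT genes, 39 Hox genes (Hoxb13 among them), 11 TALE homeobox genes (Meis1 among them), 41 ribosomal protein genes, 31 mitochondrial ribosome genes, 24 growth signalling genes or 17 potassium channel genes had a region called in all 4. Each of these lists is too short for such a count to be set apart from the background of 2.84%. Fetal and load genes had 2 of 11 (Myh7 and Xirp1), and intercalated disc genes 2 of 18 (Gja1 and Xirp1), each counted in another list too. Marker genes of other cells had 2 of 20 for endothelium (Fabp4 and Egfl7), 1 of 17 for fibroblasts (Vim), 1 of 9 for erythroid cells (Epor), 1 of 16 for leukocytes (Cd3e, past its boundary) and 0 of 10 for smooth muscle and pericytes. Of these genes Vim alone had a region that overlapped its body, and the others had theirs outside the gene, within 5 kb. Genes of neurons (12) and liver (10) had none.

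Leaving out 1 library at a time, sarcomere genes had 16 to 19 and calcium handling genes 6 to 8, and with lists of equal length they had 14 and 5. Without Paro/Neo replicate 1 the background itself was 5.56% (1216 genes), and the counts were 10 for translation and splicing, 8 for protein quality, 8 for the respiratory chain, 7 for glycolysis and HIF, 6 for fatty acid use, 6 for cardiac transcription factors, 4 for the TCA cycle, 4 for the Hippo pathway and 1 for cell cycle drivers. Of the other lists without a region, those of ribosomal proteins, mitochondrial ribosomes, growth signalling and smooth muscle then had 2 each, and those of calcineurin and potassium channels 1 each. Without control replicate 2, 901 genes (4.12%) had a region, with 3 cardiac transcription factors, 3 potassium channels, 2 CDK inhibitors or pocket proteins, 2 ribosomal proteins, 2 growth signalling genes and 1 cell cycle driver among them. The Hox, TALE, neuron and liver lists had 0 in each of these settings, but are too short to be set apart from the background. Of 11 TALE genes, 4 had a region called in 2 or more libraries. Peaks with a −log10 q of at least 2 gave 413 genes (1.89%), with 15 sarcomere genes, 6 immediate early genes, 4 of translation and splicing, 1 of protein quality and none of the TCA cycle. Equal list lengths gave 291 genes (1.33%), with 4 immediate early genes, 3 of translation and splicing and 2 of protein quality.

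The position within the gene differed between the kinds of region. Of the 449 regions, 399 overlapped a gene body, and 351 (78.2%, 95% Clopper-Pearson interval 74.1 to 81.9, which covers counting error only) lay within 1 kb of a gene end, against 80.2%, 73.7% and 34.4% for regions called in exactly 3, 2 and 1 libraries. Without Paro/Neo replicate 2 the share was 69.6%. A known gene start was reached by 271 of the 449 regions (60.4%), against 64.5% of those called in exactly 3. Another 73 reached no known start but lay at a gene of unknown strand, and their place was left undetermined. Of the remaining 376 regions 72.1% reached a start, against 77.5% of regions called in exactly 3. Leaving out the undetermined regions can only raise this share. By width, a known start was reached by 94 of 139 regions under 1 kb and 131 of 203 from 1 to 3 kb. It was reached by 35 of 79 from 3 to 10 kb and 11 of 28 of 10 kb or more. With undetermined regions left out, the shares were 77.0%, 77.5%, 56.5% and 47.8% in that order.

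The stretch common to the 4 libraries was then placed against each gene of known strand, since a broad region can reach a start that the shorter lists did not. The centre of the longest common stretch lay within 1 kb of the start for 215 of 448 pairs of a region and a gene of no list (48.0%). For sarcomere and calcium handling genes it did so for 0 of 27 pairs. There, 13 pairs had it inside the gene, 7 of them in Ttn, 3 within 1 kb of the last base and 11 more than 1 kb past the last base (40.7%). A long stretch can cover a start that its centre misses. At Myh7 the stretch in the 30478-bp region ran from 54988108 to 54998301 and covered the gene start at 54994549. Genes of energy supply had 3 of 13 at the start and 9 at or past the last base, and the immediate early genes 1 of 7 at the start and 6 at or past the last base. Without each library in turn, at equal list lengths and at the stricter q, sarcomere and calcium handling genes kept 0 pairs with the centre within 1 kb of the start. The share at or past the last base was 51.9% for these genes and 30.1% for genes of no list, and 29.2% and 29.3% without Paro/Neo replicate 2. The number of such pairs at sarcomere and calcium handling genes was 14 both with and without that library, while all their pairs numbered 27 with it and 48 without it. Each region was paired with every gene within 5 kb of it, so a centre past a last base can lie at a neighbouring gene. In the 40787-bp region the stretch (54937595 to 54947730) lay over the last part of Myh6. The same stretch also counted as past the last base of Myh7 (54970684).

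Named genes show the same placement. The centre of the common stretch lay 226 bp past the last base of Actc1, 1651 bp past that of Mybpc3, 1749 bp past that of Tnni3 (cardiac troponin I) and 2861 bp past that of Tnnt2 (cardiac troponin T). At Ryr2, a gene of 553847 bp, it lay 4960 bp past the last base. It lay 288 bp past the last base of Jun, 429 bp past that of Gapdh and 821 bp past that of Mb. At Tead3, Cdkn2d and Cs, in contrast, it lay 89, 123 and 216 bp downstream of the start.

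**Figure D5:**
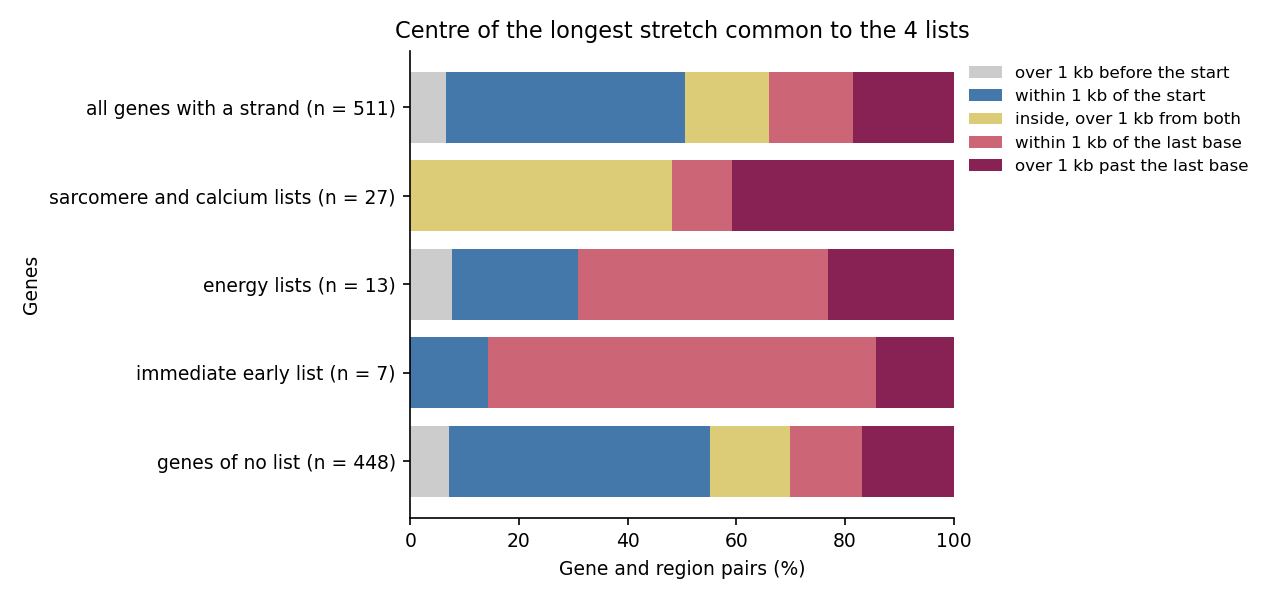
Place of the centre of the longest stretch under a peak in all 4 Hoxb13 libraries, as a share (%) of pairs of a region and a gene of known strand within 5 kb, for all such genes and for gene lists. The bar of the sarcomere and calcium lists has no centre within 1 kb of the start, although the stretch at Myh7 covers its start.

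Bases under a peak overlapped between the treatments. The median covered length of the regions was 899 and 511 bp in the controls and 395 and 1416 bp after Paro/Neo, so that the Paro/Neo libraries held both the lowest and the highest value. The group means were 705 ± 274 bp and 906 ± 722 bp (SD, n = 2 each), and the means of the log2 values differed by 0.14, Paro/Neo minus control. Since these are the peaks that chose the regions, the difference is a description with no test. The sign depended on the libraries used: leaving out Paro/Neo replicate 2 gave −0.74, leaving out control replicate 2 gave −0.22, and leaving out the first replicates gave 0.54 (control) and 1.14 (Paro/Neo). Paro/Neo replicate 2 also covered the most of Actc1, Myh6, Ttn and Atp2a2. Median covered length followed the length of the list in all 4 libraries, and the part of list length in the values was not tested.

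The Meis1 lists were not used in the selection. A peak of at least 1 Meis1 library lay in 91 of the 449 regions (20.3%), against 8.44% of all 17634 regions, and peaks of all 4 Meis1 libraries lay in 18 (4.01%), against 1.50%. In Meis1 control replicates 1 and 2, 13.1% and 13.8% of the regions held a peak, against 7.49% and 6.89% of the regions called in exactly 3 Hoxb13 libraries. In Meis1 Paro/Neo replicates 1 and 2 the shares were 7.35% and 8.69% against 3.14% and 3.59%. The share was higher in 4 of 4 Meis1 libraries, by 5.47 ± 1.14 percentage points (SD, n = 4, exact two-sided sign-flip permutation p = 0.125, the smallest that 4 libraries allow). A wider region can hold more peaks, and within 500 bp at the region centres the difference was 2.84 points. All of the 20 low-fold regions held a Meis1 peak. With regions under a mean fold percentile of 5 left out of both classes, the difference was 3.40 points. Of the other 429 regions, 71 (16.6%) held a Meis1 peak. Regions of 10 kb or more held one in 53.6%, and the 3 narrower classes in 20.1%, 15.8% and 20.3%.

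The regions that also had peaks in all 4 Meis1 libraries lay at genes of several kinds. The highest by Hoxb13 percentile were those at Ephb4, a receptor of venous endothelium, and Mb. Others lay at Dusp1, Lrrc10 with Cct2 (Lrrc10 encodes a heart-restricted leucine-rich repeat protein), Hspb7 (a small heat shock protein of muscle), Tbc1d10b with Mylpf, Hip1, Myadm, Evi5l and Mib1. The region at Mib1 also holds the host transcript Mir133a-1hg with Mir133a-1, Mir1b and Mir1a-2, which belong to the same microRNA families as the cluster at Mir1a-1hg. Of the 18, 3 were low-fold regions.

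Fewer of the regions held a Meis1 peak after Paro/Neo, 8.02 ± 0.945% against 13.5 ± 0.472% in control (SD, n = 2 each), a difference of −5.46 points (exact two-sided permutation p = 0.333, the smallest that 2 against 2 libraries allow). The Meis1 lists were also shorter after Paro/Neo, with 1541 and 1025 peaks against 3529 and 3176. The file naming of the second Meis1 replicates disagrees with their labels, and with those exchanged the difference was −0.334 points (exact permutation p = 1). Without the 20 low-fold regions it was −6.64 points (exact permutation p = 0.333).

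The regions were spread over the genome. They numbered from 0.828 per 100 protein-coding genes on the X chromosome to 3.52 on chromosome 18, with none on Y, and 26 lay within 10 kb of another. Ttn apart, the genes whose body overlapped more than 1 region were Myh7, Tpm1, Ldb3, Dapk3, Hdgfl2, Actg1 and Cebpd, with 2 each.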

How the data were processed

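Per the submitters' processing notes, the tools were Bowtie2, FastQC 0.11.5, HOMER, MACS2 and Picard 1.127, with mm10 as the build; the sources used here give neither options nor which inputs served as controls. The authors deposited 1 broad peak list per library, without replicate pooling. The deposited ratio of a peak is its fold over local background; each peak also has a deposited −log10 p and a −log10 q, of 1.00 or more. The deposited score was not used. Folds were ranked only within a list, and a library's value for a region is that of its highest-fold peak.

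Peaks were merged in Python 3.11.15 with pandas 2.3.3 and SciPy 1.17.1, after the merging had been tested on simulated data. Samples were grouped by the labels, and the 8 inputs were not analysed here. Genes were placed by RefSeq coordinates of GRCm38.p6, which lack strand; strands came from the promoter table where it has the gene. A gene held a region within 5 kb of its body. Of 707 entries in 30 gene lists, 701 matched. The lists, and the regions themselves, were chosen with earlier results of these data known. Named regions were the 12 with the highest mean percentile, the 8 widest, the 6 with the longest common total, up to 10 called in all 4 Meis1 libraries, the list genes, genes with several regions, and those next to the selection's edge. Libraries were compared by exact permutation, except covered bases, which rest on the peaks that chose the regions and are given without the planned test. Alternatives were a stricter q, equal list lengths, each library left out, other gene windows, a minimum of common bases, exchanged Meis1 replicates, a replicate block and, added after seeing the data, a minimum fold percentile and a crossed pairing. Some genes of the lists are counted but not reported here by name.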

Additional observations from a re-analysis of the deposited data

How the results depend on the processing

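The number of regions was 212 with every list at the length of the shortest and 453 to 895 with 1 library left out; settings that asked for a −log10 q of at least 2 (308), common bases (440 and 430) or a mean fold percentile of at least 5 (429) moved it by less than 1.5 times. The median width was 962 to 1416 bp with 1 library left out. The share within 1 kb of a gene end, 78.2%, was 85.5% within 5 kb, 71.7% when the region had to cover the end, and 69.6% to 80.2% with 1 library left out. Genes with a region numbered 413 at the stricter q, 291 at equal list lengths and 606 to 1216 with 1 library left out. The Paro/Neo difference in covered bases ran from −0.74 to 1.14 with 1 library left out, reversed when Paro/Neo replicate 2 (−0.74) or control replicate 2 (−0.22) was left out; the cause was not tested. With the replicate block it was 0.14, and the difference in the share with a Meis1 peak was −5.46 (exact permutation p = 0.500). That is the smallest p that 4 orders allow, so the block could make no call. Same-numbered libraries deviated in opposite directions over the 449 regions (r = −0.41). A crossed pairing of the covered bases, chosen after seeing the data, gave the same 0.14, as any pairing must, and decides nothing. The excess of Meis1 peaks over regions called in exactly 3 libraries stayed positive in the 13 alternatives run, from 2.84 to 7.10 points. Unknown depth limits every statement on an absent peak, and with 2 libraries in a group the exact permutation test of treatments used here could not pass a threshold of 0.05.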
